A study of Mus musculus with 27 samples.

Results

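The 10 genes described here encode glycolytic enzymes and transporters of glucose and lactate whose isoforms are usually listed as those of tissues other than skeletal muscle: Slc2a1, Hk1, Hk3, Pfkl, Pfkp, Aldoc, Pgam1, Eno1, Ldhb and Slc16a3. They were taken by gene name from the 54532 genes of the expression table, and all 10 were found. The table covers 27 tibialis anterior muscles of 8-week-old male C57BL/6 mice. It was made to follow gene expression after volumetric muscle loss (VML), in which 40% of the muscle was excised. The no-injury control group had 5 samples, day 3 after VML had 5, day 7 had 6, day 14 had 6 and day 21 had 5. All groups share the strain, sex and muscle, and no other treatment or allele is given. The sources differ on whether 1 or both legs were injured, and the labels do not say which samples came from separate animals, so the p-values below measure only the spread between these samples. In such a bulk sample, fewer cells of a type and less RNA per cell cannot be told apart.

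Glycolysis turns glucose into pyruvate through a chain of enzymes, most of which exist as several isoforms made by separate genes. Adult fast muscle is known for a set of its own, with the insulin-responsive transporter Slc2a4 (GLUT4), Hk2, Pfkm, Aldoa, Pgam2, Eno3 and Ldha, while immune cells, fibroblasts and dividing cells mostly use Slc2a1 (GLUT1), Pfkl, Pfkp, Pgam1 and Eno1. Ldhb is the heart-type subunit of lactate dehydrogenase, and Slc16a3 (MCT4) and Slc16a1 (MCT1) carry lactate across the cell membrane. Each gene below was set beside a partner, the muscle-type gene of its own family. For the lactate transporters Slc16a1 served as the partner without being a muscle-type gene.

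The total per sample ran from 14376395 to 24436763 reads, with a median of 17398586. Levels are in FPKM, fragment counts normalised for gene length and for the depth of the sample. Comparisons between genes rest on the deposited gene lengths, such as 5379 bases for Eno1 and 1739 for Eno3. A length above that of the transcripts present lowers the FPKM of a gene, and no correction was made for this. FPKM and gene length together gave back whole reads, which showed that the divisor behind the FPKM was not the read total alone: divisor over reads had a control median of 0.796 and medians of 1.15, 1.24, 1.05 and 0.916 on days 3, 7, 14 and 21 in turn. The deposited values therefore carry a scaling between samples. When each sample was instead rescaled to a common sum, the median log2 fold change of all genes tested moved from 0.012 to 0.62 at day 3, and the share of called genes that were higher moved from 54.1% to 95.5%. Directions below were checked under this and 3 other scalings.

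Libraries differed in their levels of cell markers. The summed FPKM of 10 macrophage and monocyte markers was 17.1 to 26.1 in controls, and at day 3 it was 1438.9, 1007.7, 1996.6, 2178.6 and 325 in replicates 1 to 5. At day 7 it was 2044.3 in replicate 5 and 47.9 to 421 in the others. Day 7 replicate 5 was thus within the range of the day 3 samples and day 3 replicate 5 within that of the other day 7 samples. The labels were used as given, and results that rest on these 2 libraries are also given without them.

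Of the 10 genes, 9 reached 0.5 FPKM in 5 samples or more, which was the filter, and were tested with limma among 14630 genes. Aldoc did not reach 0.5 in any sample and was left untested. Hk3 passed through 10 samples, of which 5 were from day 3, 4 from day 7 and 1 from day 14, so it was tested because it was high in injured muscle. At day 3, Slc2a1, Hk1, Hk3, Pfkl, Pfkp, Pgam1 and Eno1 rose and Ldhb and Slc16a3 fell, so that 7 of 9 were higher and 2 lower, against a background of 23.4% of all tested genes higher and 19.8% lower. The median log2 fold change of the 9 genes was 0.85 and that of all tested genes 0.012. The ranges of control and day 3 samples did not overlap for 8 of the 9, with 6 higher, 2 lower and Pfkl the exception, where 19.8% of all tested genes were higher and 16.5% lower without overlap. This background was counted for day 3 alone, so ranges without overlap on later days have none beside them. All 8 partner genes, the 7 muscle-type genes and Slc16a1, fell, with a median log2 fold change of -1.33.

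At day 7, 5 of the 9 were higher (Slc2a1, Hk1, Hk3, Pgam1 and Eno1) and the same 2 lower, against 15% and 14.4% of all tested genes. The day 7 rises were less firm: 2 of the 5 (Slc2a1 and Eno1) were still called with no filter on low values and 1 (Slc2a1) when only the controls and day 7 were fitted. Rescaled to a common sum, which also raised the median of all tested genes, the 5 stayed called and Pfkl and Pfkp were called higher too. At day 14 none was higher and 2 were lower (Ldhb and Slc16a3), against 9.02% and 11.3%. At an unadjusted p under 0.05 Hk1 would count as higher. At day 21 limma called 0 of the 9 at an adjusted p under 0.05, against 1.74% of all tested genes higher and 1.69% lower. At an unadjusted p under 0.05 the count was 1, Ldhb, and a limma-voom fit of the recovered reads called 0. Between day 3 and day 21 the 7 genes that had risen all fell, 7 of 9 lower and 0 higher, against 16.2% lower and 9.23% higher in the background. At an unadjusted p under 0.05 Slc16a3 would count as higher. The fall of Pfkp was lost without day 3 replicate 4 or day 21 replicate 4. Since day 3 enters both comparisons, the second is not separate evidence of the first.

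**Figure D1:**
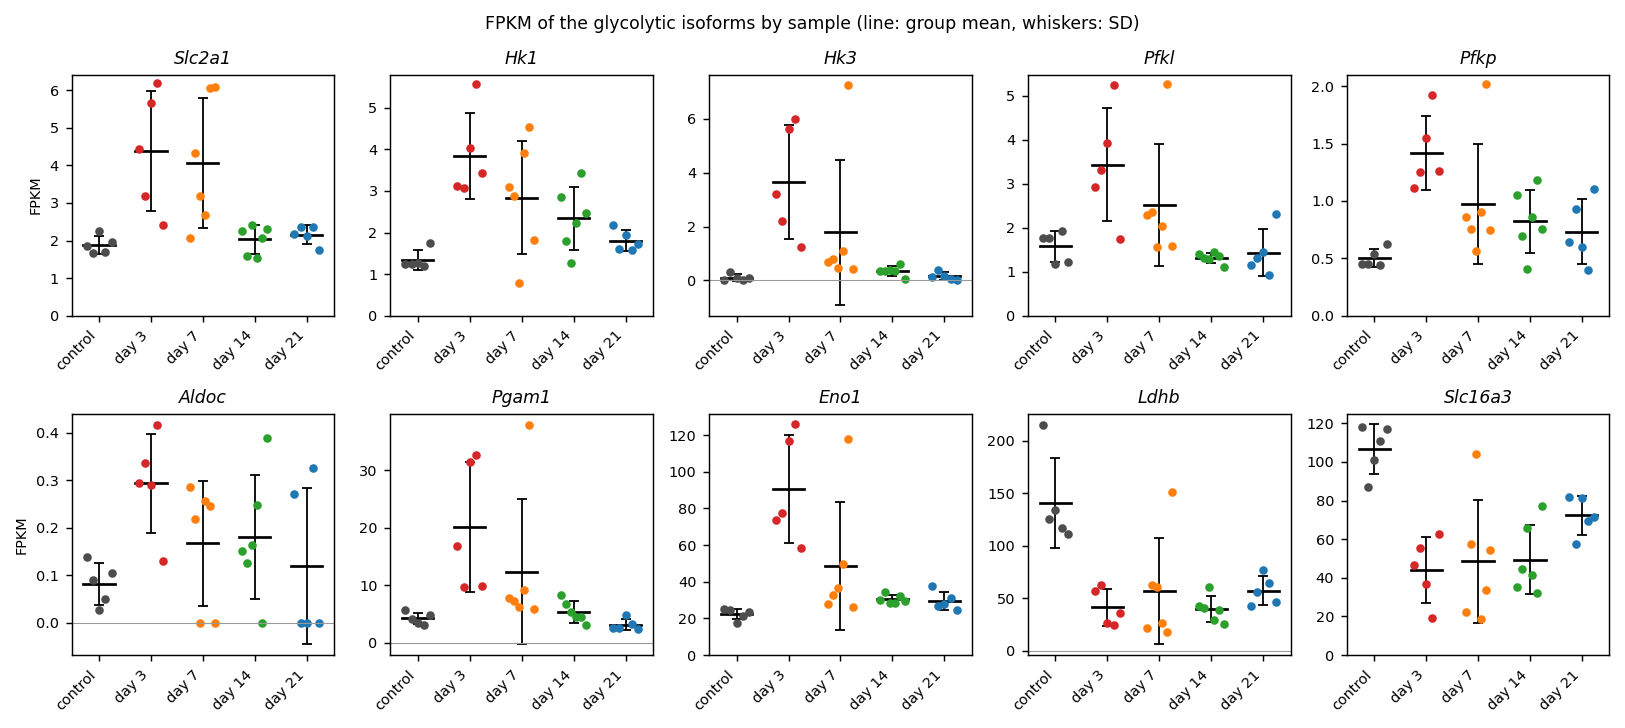
FPKM of each of the 10 genes (y axis, linear, 1 scale per panel) in every sample of the control, day 3, day 7, day 14 and day 21 groups (x axis); dots are samples, lines are group means and whiskers are SDs. Slc2a1, Hk1, Hk3, Pfkp, Pgam1 and Eno1 lie above all controls in all 5 day 3 samples, while Ldhb and Slc16a3 lie below them; the single high day 7 dot for Hk3, Pgam1 and Eno1 is replicate 5.

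The name non-muscle did not hold for 2 of the genes. In uninjured muscle Slc16a3 had 107 ± 13.2 FPKM (SD, n = 5) and made up 87.3% of the FPKM of Slc16a3 and Slc16a1 together. Ldhb had 140.3 ± 42.5 FPKM (SD, n = 5) and made up 9.65% of the summed Ldha and Ldhb. Both fell after injury along with the muscle-type genes, and the level of Slc16a3 followed Pfkm, the muscle phosphofructokinase, with a Pearson r of 0.944 over the 27 samples. The other 8 genes were minor in their families in control muscle, from 0.000786% of the aldolase FPKM for Aldoc to 2.48% of the hexokinase FPKM for Hk1. They are called the minor isoforms below, and Ldhb and Slc16a3 are taken apart from them.

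The bases before the start sites of 3 genes that rose and the 2 that fell are shown as examples. They come from RefSeq, GRCm38.p6, for the strand of the gene, 5′ to 3′. Capitals mark the core of the hypoxia response element, ACGTG or GCGTG on either strand (CACGT or CACGC in reverse), except in Hk3, where they mark GAGGAAG, a core bound by the myeloid factor PU.1, here on the opposite strand. Left in lower case are ACGTG in Hk3, on the opposite strand, and GAGGAAG in Pgam1.
Slc2a1, chr4:119108495-119108744, plus strand: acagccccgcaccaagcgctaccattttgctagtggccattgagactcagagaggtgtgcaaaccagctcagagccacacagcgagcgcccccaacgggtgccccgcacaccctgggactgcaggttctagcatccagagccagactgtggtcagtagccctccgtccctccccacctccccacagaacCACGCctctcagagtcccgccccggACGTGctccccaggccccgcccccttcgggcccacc
Hk3, chr13:55021386-55021635, minus strand: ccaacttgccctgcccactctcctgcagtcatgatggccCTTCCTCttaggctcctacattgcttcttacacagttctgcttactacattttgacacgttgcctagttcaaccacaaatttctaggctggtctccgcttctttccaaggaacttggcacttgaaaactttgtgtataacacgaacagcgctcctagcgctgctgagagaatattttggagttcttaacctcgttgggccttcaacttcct
Pgam1, chr19:41911621-41911870, plus strand: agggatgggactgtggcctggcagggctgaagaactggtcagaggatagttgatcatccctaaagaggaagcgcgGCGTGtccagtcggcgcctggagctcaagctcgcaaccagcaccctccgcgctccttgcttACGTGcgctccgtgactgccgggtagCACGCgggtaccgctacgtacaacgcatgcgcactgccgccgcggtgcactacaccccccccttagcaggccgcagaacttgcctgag
Ldhb, chr6:142507958-142508207, minus strand: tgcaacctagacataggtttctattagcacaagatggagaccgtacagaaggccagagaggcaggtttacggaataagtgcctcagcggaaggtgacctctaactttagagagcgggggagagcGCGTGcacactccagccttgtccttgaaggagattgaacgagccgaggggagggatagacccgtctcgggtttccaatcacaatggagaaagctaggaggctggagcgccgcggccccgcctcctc
Slc16a3, chr11:120948817-120949066, plus strand: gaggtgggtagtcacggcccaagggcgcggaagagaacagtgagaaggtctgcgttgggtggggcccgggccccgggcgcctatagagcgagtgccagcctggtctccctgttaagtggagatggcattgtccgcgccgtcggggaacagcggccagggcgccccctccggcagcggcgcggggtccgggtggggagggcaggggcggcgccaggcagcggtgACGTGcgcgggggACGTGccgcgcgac

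Motifs were counted on both strands in windows of 300 bases, 250 before and 50 after each start site, of which the 10 genes have 14. ACGTG was in the windows of 6 of 10 genes and in 19.6% of 32851 mouse promoter windows. GCGTG was in 8 of 10 and in 32.4%. The SP1 box GGGCGG was in 7 of 10 and in 35.7%, GAGGAAG was in 3 of 10 (Hk1, Hk3 and Pgam1) and in 13.6%, and the E-box CACGTG, which contains ACGTG, was in 0 of 10 and in 7.15%. Genes with several start sites had more windows in which to hold a motif. Slc16a3, which fell, held ACGTG at 27 and 14 bases before its start site, and Slc2a1, which rose, held it at 36 bases before, so that the motif stood in genes of both directions. These matches are a description of letters and were not tested against the fold changes.

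Slc2a1, the transporter of basal glucose uptake (chr4:119108711-119137983), rose at day 3 and day 7. It had 1.86, 1.66, 2.26, 1.69 and 1.95 FPKM in the 5 controls and 4.44, 3.19, 5.66, 6.18 and 2.41 FPKM at day 3. Each day 3 sample was above every control, with replicate 5 the lowest. The log2 fold change of log2(FPKM + 1) was 0.85 ± 0.20 (SE, adjusted p = 0.00137). At day 7 the levels ran from 2.06 to 6.07 FPKM with a median of 3.76, and the fold change was 0.74 ± 0.19 (adjusted p = 0.00577). Replicate 1 at day 7 lay within the control range and replicates 5 and 6 were the highest. Means of 2.03 FPKM at day 14 and 2.15 at day 21 stood beside 1.88 in controls, with log2 fold changes of 0.065 and 0.13 that did not pass the test. Slc2a4 meanwhile fell from 202 ± 20.0 to 73.0 ± 28.4 FPKM at day 3 (log2 fold change -1.56, adjusted p = 0.000655), and so remained the more abundant of the pair in every group mean.

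Hexokinases trap glucose in the cell by phosphorylation. Hk1, the form bound to mitochondria in most tissues (chr10:62268855-62379908), had 1.25, 1.24, 1.26, 1.20 and 1.76 FPKM in controls and 3.11, 3.07, 4.04, 5.56 and 3.44 FPKM at day 3. All day 3 samples were above all controls, with replicate 4 the highest. The difference from control on the log2 scale was 1.03 ± 0.22 at day 3 (adjusted p = 0.000500), and at day 7 it was 0.63 ± 0.21 (adjusted p = 0.0257). The day 7 call was lost without day 7 replicate 5 (log2 fold change 0.50, adjusted p = 0.0778), and also without any of control replicates 1, 2 and 4 or day 7 replicates 1 and 4. It was lost as well under quantile normalization (0.48, adjusted p = 0.0728). At day 14 5 of 6 samples were above every control, but the log2 fold change of 0.49 did not pass (adjusted p = 0.0981). Reads of Hk1 cannot be told from those of the antisense gene Hk1os that overlaps it, since the libraries carry no strand, and Hk1os was at most 0.255 FPKM in any group mean. The same holds for Slc2a1 and its antisense genes Gm12867 and Gm12868, at mean FPKMs of 0.0668 and 0.0273, and for 34 bases that Hk3 shares with Unc5a.

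Hk3, a hexokinase known from blood and immune cells (chr13:55005985-55021385), showed the largest ratio of means, with few reads behind it in controls. Controls had 0, 0.331, 0.0926, 0 and 0.0928 FPKM, from 0 to 21 reads, and day 3 samples had 3.20, 2.19, 5.63, 6.01 and 1.23 FPKM, from 96 to 547 reads. The groups did not overlap, and the day 3 mean was 35.3 times the control mean, or 78.8 times without control replicate 2, the highest control. The log2 fold change was 1.95 ± 0.34 at day 3 (adjusted p = 6.44e-05) and 0.99 ± 0.32 at day 7 (adjusted p = 0.0226). With no filter on low values, the filter it had passed through injured samples alone, the day 7 difference did not pass (adjusted p = 0.0562). At day 7 replicate 5 had 7.24 FPKM, above every other sample of the series, while the other 5 lay between 0.414 and 1.08. Without it the day 7 mean was 0.688 ± 0.269 FPKM instead of 1.78, and the log2 fold change was 0.61 (adjusted p = 0.0434). By day 14 the mean was 0.345 FPKM and by day 21 0.147 FPKM, with neither difference from control past the test. Hk2, the insulin-regulated muscle hexokinase, fell from 54.0 ± 8.29 to 24.8 ± 5.74 FPKM at day 3.

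Phosphofructokinase commits glucose to glycolysis. The liver-type Pfkl (chr10:77986947-78010083) went from a range of 1.17 to 1.93 FPKM in controls to 1.75 to 5.24 at day 3, with replicate 5 alone within the control range, and the log2 fold change was 0.74 ± 0.20 (adjusted p = 0.00460). The platelet-type Pfkp (chr13:6579768-6648777) went from 0.442 to 0.627 FPKM in controls to 1.11 to 1.92 at day 3 without overlap, with a log2 fold change of 0.68 ± 0.15 (adjusted p = 0.000746). Neither passed at day 7 (adjusted p = 0.134 for Pfkl and 0.0584 for Pfkp), and without replicate 5 their log2 fold changes were 0.21 and 0.23. Rescaled to a common sum, both passed at day 7 (limma adjusted p = 0.0141 and 0.0106). Their log2 fold changes were then 1.04 and 0.93, which lay 0.46 and 0.35 above the median of all tested genes. Pfkp and its neighbour Pitrm1 on the opposite strand overlap by 748 bases, where reads cannot be assigned. Pfkm was far above both throughout, at 1472.4 ± 75.0 FPKM in controls and 495 ± 158 at day 3.

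Aldolase splits fructose bisphosphate. The brain-type Aldoc (chr11:78322968-78327781) was barely detected, with 1 to 6 reads per control sample, 9 to 31 at day 3, and 0 reads in 6 of the 17 later samples. Its mean was 0.0815 FPKM in controls and 0.294, 0.168, 0.180 and 0.120 FPKM on days 3, 7, 14 and 21 in turn. Of the 5 day 3 samples 4 lay above every control, and replicate 5 lay within the control range. Fitted without the filter, its day 3 log2 fold change was 0.26 ± 0.095 (adjusted p = 0.0606), so no difference was shown at this depth. Aldoa had 10426.4 ± 730 FPKM in controls.

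Pgam1, the phosphoglycerate mutase of brain and most other tissues (chr19:41911871-41918664 in the deposited table), had 5.62, 4.13, 3.40, 3.15 and 4.81 FPKM in controls and 16.9, 9.65, 31.4, 32.6 and 9.88 FPKM at day 3. The groups did not overlap, and replicates 2 and 5 were the lowest at day 3. The log2 fold change was 1.86 ± 0.37 (adjusted p = 0.000299). All 6 day 7 samples were above every control, from 5.83 to 37.9 FPKM with a median of 7.49, and the log2 fold change was 1.04 ± 0.36 (adjusted p = 0.0298). Without replicate 5, which had the 37.9, the mean was 7.23 ± 1.35 FPKM instead of 12.4 and the difference no longer passed (log2 fold change 0.66, adjusted p = 0.0832). The call was lost also without any of control replicates 2, 3 and 4. At day 21 the mean of 3.15 ± 1.01 FPKM was below the control mean of 4.22 ± 1.02, which did not pass (adjusted p = 0.654). Pgam2, the muscle form, fell from 5188.0 to 2044.8 FPKM at day 3 and stood at 5507.1 at day 21.

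Eno1, the enolase of most non-muscle cells (chr4:150236721-150248879), was the most abundant of the minor isoforms. Controls had 24.9, 24.7, 17.7, 21.3 and 23.4 FPKM, and day 3 samples had 73.8, 77.5, 117, 126 and 58.2 FPKM. All day 3 values were above the highest control, and replicate 5 was the lowest of them. The day 3 log2 fold change was 1.92 ± 0.27 (adjusted p = 7.55e-06), and that of day 7 was 0.87 ± 0.26 (adjusted p = 0.0141), with values from 26.0 to 118 FPKM and a median of 34.8. Again replicate 5 was the highest, and without it the log2 fold change was 0.58 (adjusted p = 0.0269). All 6 day 14 samples, from 28.2 to 34.2 FPKM, were above the highest control of 24.9, and the log2 fold change of 0.43 ± 0.26 did not pass (adjusted p = 0.246). At day 21 4 of 5 samples were above that value (log2 fold change 0.38, adjusted p = 0.455). Eno1b, a near-identical copy without introns, went from 0.592 to 2.62 FPKM at day 3, and reads shared by the copies may have been split between them. Eno3, the muscle enolase, fell from 5532.3 ± 397 to 2376.9 ± 1121.5 FPKM at day 3.

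Ldhb, the heart-type lactate dehydrogenase subunit (chr6:142490249-142507957), fell. Controls had 215, 125, 134, 117 and 111 FPKM and day 3 samples had 57.0, 62.6, 26.9, 25 and 36.0 FPKM. No day 3 sample reached the lowest control, and control replicate 1 stood above the other controls. The log2 fold change was -1.79 ± 0.40 at day 3 (adjusted p = 0.000860), -1.65 ± 0.38 at day 7 (adjusted p = 0.00287) and -1.81 ± 0.38 at day 14 (adjusted p = 0.00248). At day 7 replicate 6, with 151 FPKM, was within the control range and the other 5 were below it, from 17.7 to 62.6. At day 21 samples had 43.0, 55.7, 76.8, 64.3 and 46.4 FPKM, all below every control, with a log2 fold change of -1.27 ± 0.40 (95% interval -2.09 to -0.44) that did not pass after adjustment over all genes (adjusted p = 0.0757). Ldha fell less on the log2 scale at day 3, with -1.08 ± 0.30 (adjusted p = 0.00502).

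Slc16a3, the lactate exporter of glycolytic cells (chr11:120948480-120960868), also fell. Controls had 118, 87.0, 101, 111 and 117 FPKM and day 3 samples had 46.4, 55.2, 36.6, 19.2 and 62.5 FPKM, without overlap. The log2 fold change was -1.36 ± 0.35 at day 3 (adjusted p = 0.00255), -1.36 ± 0.33 at day 7 (adjusted p = 0.00399) and -1.16 ± 0.33 at day 14 (adjusted p = 0.0153). At day 7 replicate 3 had 104 FPKM, within the control range, and the lowest sample had 18.7. Rescaled to a common sum, the day 3 value was -0.55 and did not pass (adjusted p = 0.0848). At day 21 all 5 samples, from 57.7 to 82.0 FPKM, were below the lowest control, but the log2 fold change of -0.56 did not pass (adjusted p = 0.380). Slc16a1 fell from 15.5 to 8.41 FPKM at day 3 (log2 fold change -0.82 ± 0.20, adjusted p = 0.00172) and was the only partner gene still called at day 21 (-0.71, adjusted p = 0.0465). That call was lost when samples were rescaled to a common sum (adjusted p = 0.441), with the read total alone (adjusted p = 0.236) and under quantile normalization (adjusted p = 0.0970).

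**Figure D2:**
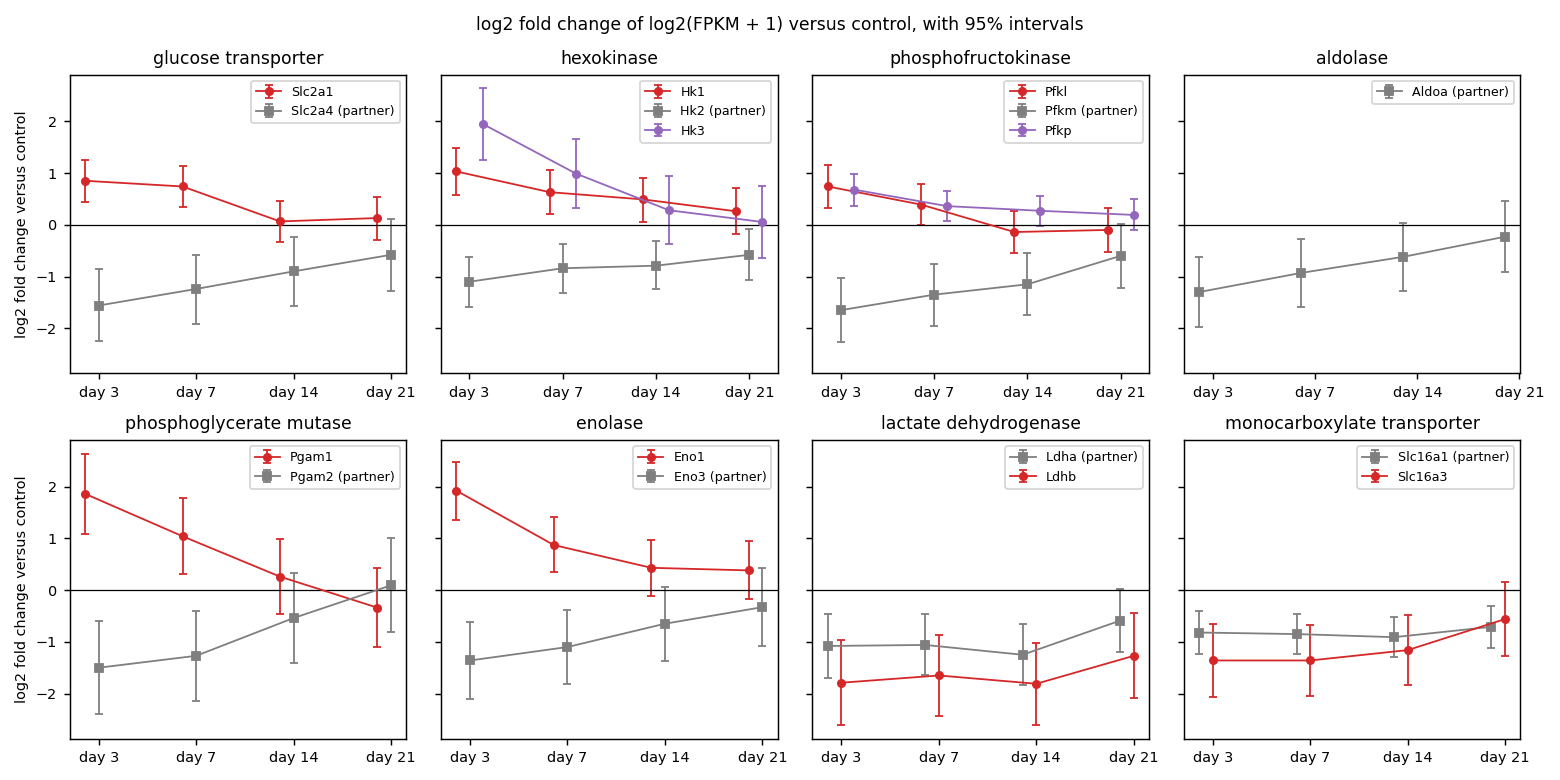
log2 fold change of log2(FPKM + 1) against control (y axis) at day 3, day 7, day 14 and day 21 (x axis) for each family, with 95% intervals from limma; circles are the genes described here and grey squares the partner. At day 3 the intervals of Slc2a1, Hk1, Hk3, Pfkl, Pfkp, Pgam1 and Eno1 lie above 0 and those of all partners below it, while Ldhb and Slc16a3 lie below 0 with their partners. Aldoc was not tested.

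The 7 rises at day 3 passed the test under each of 5 scalings, the deposited one included. These are not separate checks. Median-ratio scaling barely moved the values (1.92 for Eno1 in both), and rescaling to a common sum shifted all genes upward. Under the common sum the 7 lay 0.81 (Pfkp) to 2.42 (Hk3) above the median of all tested genes. The falls of the partner genes depended on the scaling: of 8 that fell at day 3, 5 were lower when rescaled to a common sum, 5 with the read total alone and 4 under quantile normalization, where Aldoa had a log2 fold change of 0.051. At day 7 the same counts were 1, 2 and 4 of 8. A measure without this dependence is the share of each gene in the summed FPKM of its family, in which any scaling of a whole sample cancels. A share moves when either partner moves, and its size depends on the gene lengths behind the FPKM. In day 3 replicate 4, for example, Eno1 had 15489 reads and Eno3 37550, while the Eno1 share of FPKM was 11.8%.

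At day 3 the shares of all 8 minor isoforms were higher than in controls without overlap, with the smallest p that 5 against 5 samples can give (two-sided exact permutation test, p = 0.00794 each, unadjusted). Hk1 went from 2.48% to 12.2% of the hexokinase FPKM and Hk3 from 0.220% to 11.4%. Slc2a1 went from 0.936% to 7.11% of its pair, Eno1 from 0.403% to 4.99%, Pgam1 from 0.0828% to 1.56%, Pfkl from 0.108% to 0.850% and Pfkp from 0.0339% to 0.341%. The spread was wide: the Eno1 share at day 3 was 2.80%, 2.95%, 6.01%, 11.8% and 1.43% in replicates 1 to 5, against 0.345% to 0.447% in controls. Replicate 4 carried much of most of these means. Without it they were 3.30% for Eno1, 0.899% for Pgam1, 0.547% for Pfkl, 0.238% for Pfkp and 5.02% for Slc2a1. Those of Hk1 and Hk3 moved less, to 10.7% and 9.32%. Without control replicate 2 the control mean of Hk3 was 0.0840%. The Aldoc share rose from 0.000786% to 0.00808%, or to 0.00556% without day 3 replicate 4, on few reads. The muscle-type gene thus still made up most of the family in every group mean.

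Over the 4 comparisons with control, 27 of 40 shares passed an unadjusted exact p of 0.05: 9, 7, 6 and 5 on days 3, 7, 14 and 21 in turn. The count at day 7 was also 7 without replicate 5. Shares of other gene pairs were not computed, so these counts have no background beside them. The 40 tests are not separate: all use the same controls, and Hk1 with Hk3, and Pfkl with Pfkp, share a family sum. Day 21 FPKM means were 1.35 (Hk1), 1.32 (Eno1), 1.46 (Pfkp) and 1.14 (Slc2a1) times control. Those of their partners were 0.676 (Hk2), 0.793 (Eno3), 0.660 (Pfkm) and 0.671 (Slc2a4) times control. None of these levels was called by limma. Yet the day 21 shares of Hk1 (4.91%) and Eno1 (0.672%) were higher without overlap with controls (exact permutation p = 0.00794 each). Those of Pfkp (0.0781%) and Slc2a1 (1.59%) were also higher (exact permutation p = 0.0159 each). Hk3, Pfkl, Aldoc and Pgam1 did not pass at day 21, and the Pgam1 share of 0.0606% lay below the control mean of 0.0828% (exact permutation p = 0.198). The Ldhb share was lower than the control 9.65% at day 3, with 5.98%, and at day 21, with 6.15% (exact permutation p = 0.0159 each). The Slc16a3 share was 82.7% at day 3 against 87.3% (exact permutation p = 0.0635), and without day 3 replicate 5 it was 81.1% (exact permutation p = 0.0159).

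**Figure D3:**
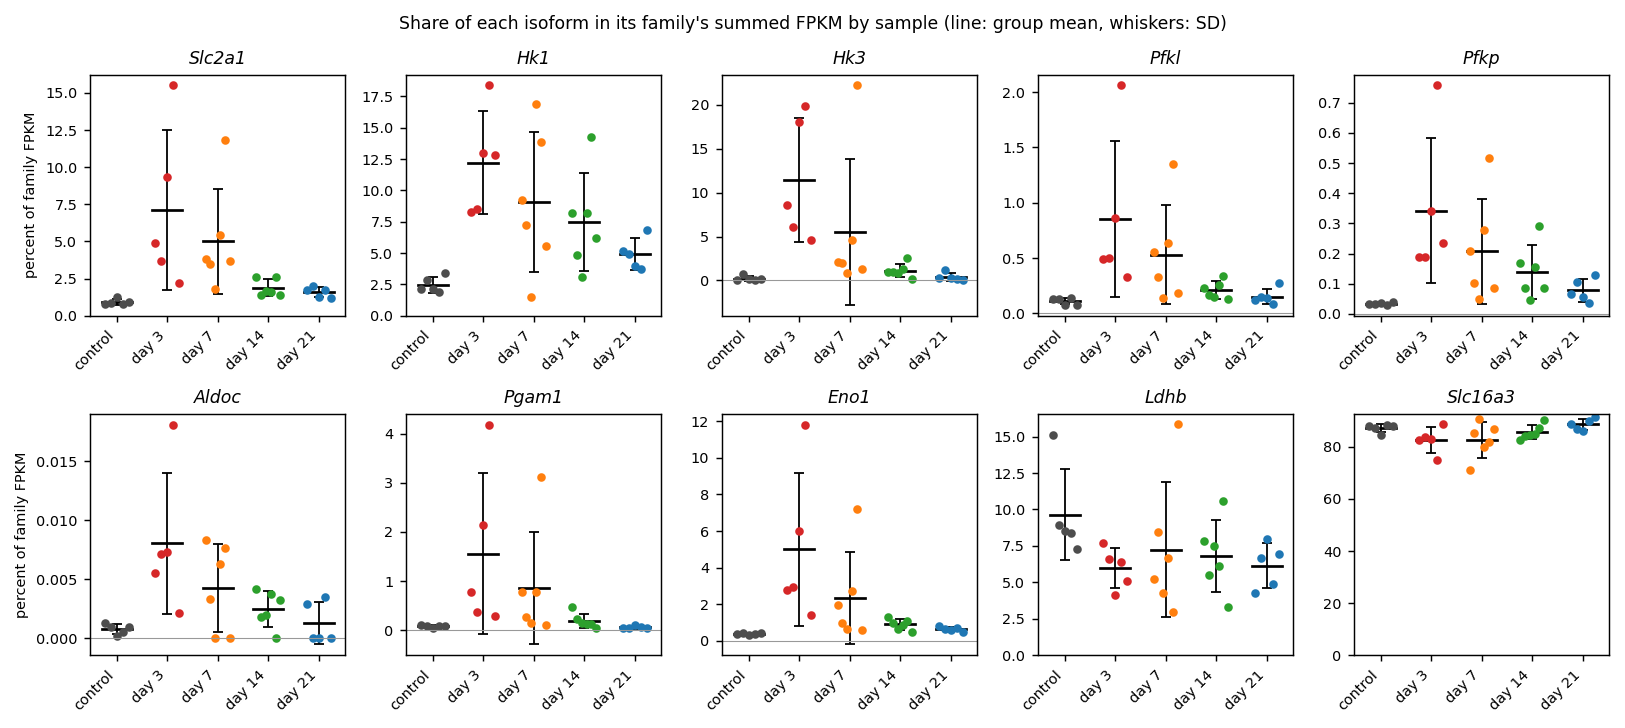
Share of each gene in the summed FPKM of its family, in percent (y axis, linear, 1 scale per panel), by sample and group (x axis); dots are samples, lines are group means and whiskers are SDs. The shares of the 8 minor isoforms lie above every control in all 5 day 3 samples, and the Hk1 and Eno1 shares do so at day 21 too.

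Among themselves the 7 genes that rose had Pearson correlations of log2(FPKM + 1) over the 27 samples from 0.55 (Hk1 with Slc2a1) to 0.95 (Hk3 with Pgam1 and with Eno1), and Ldhb and Slc16a3 had 0.74 with each other. These samples share the 5 groups and group means were not removed. The values therefore mix the course over time with differences between samples of a group. The genes most like Hk3 were Arhgap9 (r = 0.984), Tnfrsf11a (r = 0.982) and Nckap1l (r = 0.981). Those most like Pgam1 were Asah1 (r = 0.955), Tnfrsf11a (r = 0.948) and Hk3 (r = 0.947), and those most like Eno1 were Prelid1 (r = 0.970), Melk (r = 0.968) and Vav1 (r = 0.968). Hk1 was closest to Myh9 (r = 0.953), Tnfrsf1a (r = 0.935) and Gnai2 (r = 0.929). Pfkl was closest to Mdfic (r = 0.926), Chtf18 (r = 0.923) and Il4ra (r = 0.919), and Pfkp to Cap1 (r = 0.938), Fes (r = 0.938) and Poldip3 (r = 0.937). Slc2a1 followed no gene as closely, the nearest being Gas2l3 (r = 0.882), Prkcd (r = 0.876) and Tmem189 (r = 0.872). Ldhb was closest to Fgf1 (r = 0.924), Padi2 (r = 0.901) and 1810014B01Rik (r = 0.898), and Slc16a3 to Smco1 (r = 0.956), Pstk (r = 0.948) and Pfkm.

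Most other genes of the pathway were not among those that rose. Of 23 other genes of glycolysis and lactate transport 17 were tested, and at day 3 2 were higher and 10 lower, with a median log2 fold change of -0.79. Slc2a6, a transporter known from macrophages, rose from 0.0663 to 2.94 FPKM (log2 fold change 1.79, adjusted p = 2.76e-05), and the neuronal enolase Eno2 was the other that rose (0.42, adjusted p = 0.00717). Pfkfb3, which makes the activator of phosphofructokinase, fell from 26.8 to 5.30 FPKM (-2.23, adjusted p = 7.32e-06). The counts were 1 higher and 8 lower at day 7, 1 and 8 at day 14, and 0 and 1 at day 21. Rescaled to a common sum, 2 were higher and 3 lower at day 3, 3 and 2 at day 7, 2 and 2 at day 14, and 0 and 0 at day 21.

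Of a list of 15 genes linked to hypoxia, 1 was higher and 6 lower at day 3. Hif1a, which encodes the oxygen-regulated factor itself, was the 1 that rose (log2 fold change 0.98, adjusted p = 0.000416). Vegfa fell from 51.8 to 16.4 FPKM (-1.80, adjusted p = 0.000773) and Egln1 from 99.6 to 35.5 (-1.50, adjusted p = 5.58e-05). These counts turned with the scaling, since 4 were higher and 2 lower when samples were rescaled to a common sum, which shifted all genes upward. The median log2 fold change of the list was -0.13 against 0.012 for all tested genes in the deposited values. Under the common sum it was 0.46, again below the median of all tested genes.

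Markers of other cells moved alongside. At day 3 all 10 macrophage and monocyte markers were higher, with Lyz2 rising from 16.9 to 1164.6 FPKM and Cd68 from 1.61 to 144, and no marker of the list was at 0 in all controls. Of the 4 neutrophil markers tested (of 8, with 2 at 0 in all controls) 3 were higher, 6 of 7 fibroblast markers were higher and all 5 cycling cell markers were higher, with a summed FPKM of 12.2 to 33.4 against 0.273 to 0.825 in controls. Of 10 fast fibre markers 7 were lower, and their sum went from 92655.8 to 111578.1 FPKM in controls to 23227.3 to 69697.7 at day 3. Of 6 slow fibre markers 4 were higher. The slow myosin Myh7 (log2 fold change 0.10, limma adjusted p = 0.890) and Myl3 (-1.54, adjusted p = 0.0941) were not called. Of 6 endothelial markers 3 were lower, of 3 platelet markers Pf4 was higher, and none of the 5 erythroid and 5 Schwann cell markers tested passed. The macrophage, cycling and slow fibre counts were the same under all 5 scalings. When samples were rescaled to a common sum, 4 of 10 fast fibre markers were lower, 1 endothelial marker was higher and 1 lower, and all 3 platelet markers were higher. Under quantile normalization 2 fast fibre markers were lower. Day 7 replicate 5, the highest of its group for Hk1, Hk3, Pfkl, Pfkp, Pgam1 and Eno1, had 38.9 FPKM of cycling markers against 2.15 to 6.23 in the other 5 and the lowest sum of fast fibre markers of its group, 29017.7. The part that these cells had in the levels of the 10 genes was not tested.

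**Figure D4:**
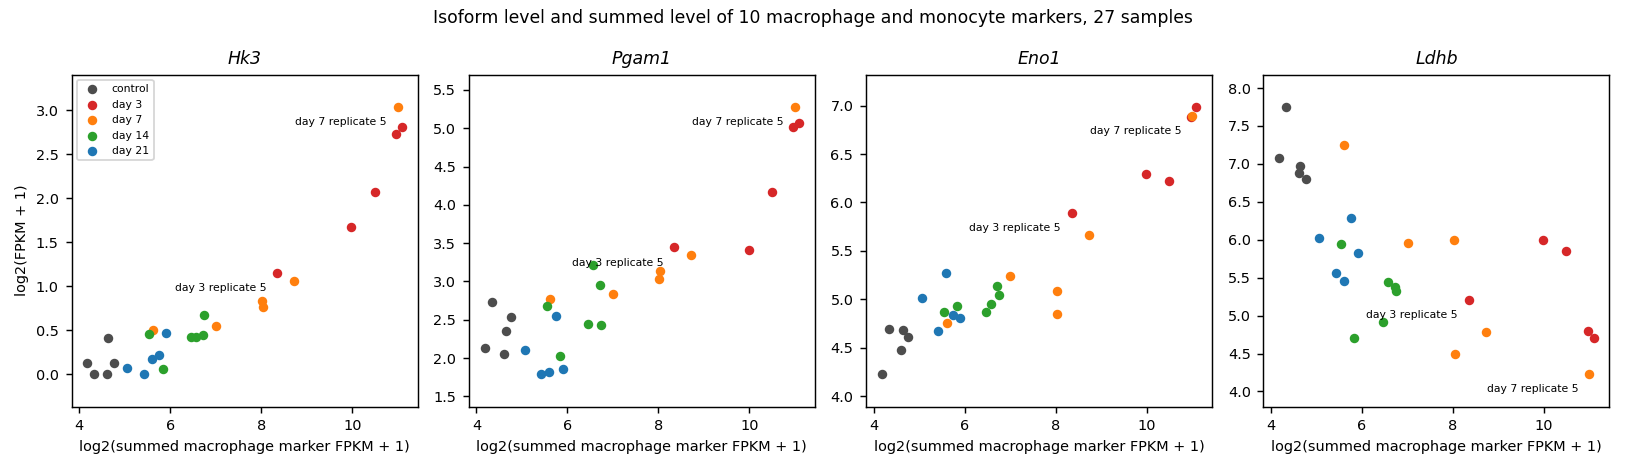
log2(FPKM + 1) of Hk3, Pgam1, Eno1 and Ldhb (y axis) against log2 of the summed FPKM of 10 macrophage and monocyte markers plus 1 (x axis) in all 27 samples, coloured by group. The 5 highest marker sums, in day 3 replicates 1 to 4 and day 7 replicate 5 (2044.3), go with the 5 highest levels of Hk3 and Eno1, and the marker sum of day 3 replicate 5 (325) lies within the range of the day 7 samples, with Hk3, Pgam1 and Eno1 above those of every day 7 sample but replicate 5.

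Without day 3 and day 7 replicates 5, the counts at day 3 were again 7 higher and 2 lower, and at day 7 they were 3 higher and 2 lower, with Hk1 and Pgam1 no longer past the test. Their day 7 directions were unchanged. The 7 lower at day 21 than at day 3 were again 7.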

How the data were processed

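Poly(A) RNA of 27 muscles was sequenced from non-directional libraries. Per the labels and methods, the authors aligned reads with HISAT2 2.0.5, counted them per gene with featureCounts 1.5.0-p3 and deposited FPKM values with each gene's length. The genome build is not given in the sources used here. Of 54532 genes, 98.3% of the 54495 found in GENCODE M21 (GRCm38) had the same coordinates, Pgam1 not among them.

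From the deposited FPKM, log2(FPKM + 1) was fitted in limma 3.58.1 (R 4.3.3) with 1 mean for each of the 5 groups, the 27 samples sharing 1 variance with a trend on expression, over 14630 genes with at least 0.5 FPKM in 5 samples or more. P-values were adjusted by Benjamini-Hochberg within each of 5 comparisons, at 0.05. FPKM times length was read back as whole reads within a tolerance of 0.1, which were used for depth and a limma-voom fit. Shares were tested by two-sided exact permutation over samples, 40 tests, unadjusted. Fits were tested on simulated data. Where a gene name occurred more than once, the row with the higher mean was used.

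Samples were grouped by the treatment label. Named genes are the 10 genes and their partners, the 2 tested genes of each list with the largest day 3 change, and for each gene the 3 with the highest Pearson r. Eno2, Hif1a, Myh7 and Myl3 were named after their values were seen. The genes and lists were chosen with earlier results of these data known. Alternatives were other pseudocounts, filters, scalings, weights and designs, and each sample left out. Same-numbered samples did not deviate together: of 51 pairs, 15 had a correlation over 0.1 (range -0.52 to 0.57).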

Additional observations from a re-analysis of the deposited data

Results flagged for a closer look

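Among groups of 5 or 6 samples, a sample was taken as far from the others when its gap to the nearest exceeded Dixon's critical value. This held in 9 of 50 groups for FPKM and 10 of 50 for shares, where chance gives about 1 in 20.

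Of the flagged values, 9 were from day 7 replicate 5. Its FPKM was 7.24 for Hk3, 5.27 for Pfkl, 2.02 for Pfkp, 37.9 for Pgam1 and 118 for Eno1. Its shares of the family were 22.2% for Hk3, 3.12% for Pgam1, 7.23% for Eno1 and 11.8% for Slc2a1. Its macrophage marker sum was also the highest of its group. The part of these cells in its levels was not tested.

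Day 7 replicate 6 stood apart for Ldhb, with 151 FPKM. In controls, Hk1 was 1.76 FPKM in replicate 5, Hk3 was 0.331 FPKM in replicate 2 with a share of 0.765%, Ldhb was 215 FPKM in replicate 1 with a share of 15.1%, and Slc16a3 had a share of 84.6% in replicate 3, below the others. In injured muscle, the Hk3 share was 1.18% in day 21 replicate 2, the Pgam1 share 0.114% in day 21 replicate 3 and the Pfkp share 0.757% in day 3 replicate 4.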

How the results depend on the processing

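Each of 45 fold changes (9 genes, 5 comparisons) was refitted under 42 alternatives, 27 of which left out 1 sample. Of these 1890 values, 1835 kept direction and side of the threshold, 24 lost the call, 23 gained it and 8 changed sign. None of the 8 was called. They were Pfkl at day 14 (0.18) and day 21 (0.009) rescaled to a common sum and with the read total alone (0.10 and 0.011), Ldhb at day 21 versus day 3 rescaled to a common sum (-0.10), Slc2a1 at day 14 under quantile normalization (-0.055) and with the replicate block by number (-0.0034), and Hk3 at day 21, where leaving out single samples gave -0.017 (without day 21 replicate 2) to 0.12. The count of genes called at day 7 was 4 with no filter on low values, where more genes were tested, and 3 when only the 2 groups were fitted. At day 14 it was 1 rescaled to a common sum and 4 when only the 2 groups were fitted. At day 21 it was 1 with sample quality weights, 2 when only the 2 groups were fitted, and 0 to 1 when single samples were left out, the 1 being Ldhb without day 7 replicate 5 or 6. Beyond these constructions the cause was not tested. At day 7 Hk1, Hk3 and Pgam1 lost the call with no filter and when only the 2 groups were fitted. Eno1 lost it when only the 2 groups were fitted and Hk1 under quantile normalization. Pfkp gained the day 7 call under 9 alternatives, and Pfkl under 2, rescaled to a common sum and with the read total alone. Hk1 at day 14 gained it without day 7 or day 14 replicate 3.

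With the samples blocked by the letter in their description, 1 gene was called at day 21, Ldhb. No other count of called genes moved by over 1.5 times under a replicate block, by number or letter. The pairing is not given by the labels. For the shares, permuting within 5 pairs cannot go below p = 0.0625, an exact limit, so that block was not run. The counts of shares past the threshold stayed within 1.5 times under every alternative run. Depth limits Aldoc and control Hk3, with 0 to 31 and 0 to 21 reads.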
